A study of Homo sapiens with 14 samples.

Results

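Clone E was derived from SUM149PT, an established human cell line of inflammatory breast cancer in which the oestrogen and progesterone receptors are missing. Its open chromatin was compared with that of the unselected line, Parental. The comparison rests on 4 of the 14 ATAC-seq libraries of the series, E replicates 1 and 2 against Parental replicates 1 and 2, which were chosen by the names of their columns. In ATAC-seq, adapters are inserted by a transposase wherever chromatin is open, so the reads of a region measure how accessible it is. The remaining libraries came, as pairs, from the clones EM1, EM2, EM3, M1 and M2. All cells were SUM149PT or clones of it, none was treated, and each clone stands for 1 clonal line. What the letters of the clones stand for is not given in the labels, nor whether a clone's libraries come from separate cultures. The p-values therefore measure only the spread between these libraries, which may be technical.

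Epithelial cells hold to each other through E-cadherin junctions and keep that state with factors such as GRHL2, ELF3 and OVOL2. In epithelial-mesenchymal transition, factors of the ZEB, SNAI and TWIST families close epithelial genes, and matrix and cytoskeletal genes open. Changes of accessibility often lie away from gene starts, at enhancers bound by factors such as AP-1 and TEAD. Interferons act through factors such as STAT2, which act at short response elements in front of genes such as the IFIT and OAS families.

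The promoters below lie under regions on which the results turn: GUCY1B1, whose start was nearly closed in E, COL5A1, whose start was open in E and nearly closed in Parental, and the interferon-induced genes IFIT1, IFIT3 and IFI44, which were more open in E. Each line gives the 250 bases before the gene start, 5′ to 3′ on the strand of the gene, from RefSeq (GRCh38.p14). All 5 genes are on the plus strand. The intervals are chr4:155758771-155759020 for GUCY1B1, chr9:134641553-134641802 for COL5A1, chr10:89392373-89392622 for IFIT1, chr10:89327747-89327996 for IFIT3 and chr1:78649539-78649788 for IFI44. Capitals mark matches, on either strand, to a searched motif: AACAATG (SOX) in GUCY1B1, GGAATG (TEAD) in IFIT1 and IFIT3, and the interferon response element (GAAA, any pair of bases, then GAAA) in IFIT1, IFIT3 and IFI44. COL5A1 held no match to a searched motif.
GUCY1B1: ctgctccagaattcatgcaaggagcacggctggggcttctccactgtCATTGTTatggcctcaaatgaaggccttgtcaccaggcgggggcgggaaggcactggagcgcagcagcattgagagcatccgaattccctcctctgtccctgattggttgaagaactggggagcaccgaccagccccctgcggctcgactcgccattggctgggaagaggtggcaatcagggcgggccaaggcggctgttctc
COL5A1: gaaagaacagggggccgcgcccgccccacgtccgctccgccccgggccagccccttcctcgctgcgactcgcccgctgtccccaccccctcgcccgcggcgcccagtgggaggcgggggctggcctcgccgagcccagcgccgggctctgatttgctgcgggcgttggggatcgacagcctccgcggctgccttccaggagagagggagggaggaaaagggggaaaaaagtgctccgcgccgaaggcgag
IFIT1: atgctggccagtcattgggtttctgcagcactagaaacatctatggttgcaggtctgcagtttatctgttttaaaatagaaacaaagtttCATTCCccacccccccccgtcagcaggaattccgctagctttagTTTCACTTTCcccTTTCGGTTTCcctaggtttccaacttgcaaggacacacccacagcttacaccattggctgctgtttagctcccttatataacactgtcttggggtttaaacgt
IFIT3: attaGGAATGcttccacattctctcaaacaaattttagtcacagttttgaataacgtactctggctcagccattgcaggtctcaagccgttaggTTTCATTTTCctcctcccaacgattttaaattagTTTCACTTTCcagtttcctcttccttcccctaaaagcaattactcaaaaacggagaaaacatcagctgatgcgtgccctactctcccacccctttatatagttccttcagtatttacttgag
IFI44: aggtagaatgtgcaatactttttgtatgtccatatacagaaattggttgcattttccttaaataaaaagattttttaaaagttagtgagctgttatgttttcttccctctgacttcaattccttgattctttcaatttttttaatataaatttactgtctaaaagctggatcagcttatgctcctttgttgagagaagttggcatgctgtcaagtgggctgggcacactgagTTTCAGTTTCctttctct

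The count table held 65774 regions with a median width of 407 bp. The libraries held 8138944 (E replicate 1), 8997141 (E replicate 2), 11102268 (Parental replicate 1) and 11878329 (Parental replicate 2) counts, within a range of 8138944 to 16786823 over the series. Levels are given as CPM, counts scaled to library size with TMM factors, and are compared within a region only, positions are in hg38, and the adjusted p is that of edgeR's quasi-likelihood F test with Benjamini-Hochberg adjustment over all regions. A log2 change is E over Parental, with its standard error (SE). A region called has an adjusted p under 0.05. Counts cannot tell a smaller share of cells with an open region, less opening in each cell and fewer copies of the DNA apart.

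The E libraries did not match each other as closely as the Parental libraries did, and E replicate 1 carried signal like that of clone M2. Across regions, which are not independent, log2 CPM correlated at 0.873 between the E libraries and at 0.970 between the Parental libraries. The correlation with the M2 libraries was 0.542 and 0.543 for E replicate 1, and 0.350 and 0.364 for E replicate 2. At 10 regions with at least 10 CPM in M2 and without a count in Parental, EM1, EM2, EM3 or M1, E replicate 1 had 22.0% of the M2 level (522 counts, exact Poisson 95% interval 20.2 to 24.0). E replicate 2 had 1.83% there (48 counts, 1.35 to 2.43). These intervals cover counting error only. Each E library is therefore also given alone, and a locus is named as changed only where both E libraries moved the same way.

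E differed from Parental at 7610 of 65771 regions tested (11.6%), of which 3463 were higher (5.27%) and 4147 were lower (6.31%). With E replicate 1 as the only E library, 5789 regions were higher (8.80%) and 3480 were lower (5.29%), or 14.1% in all. With E replicate 2 as the only E library, 1297 were higher (1.97%) and 2094 were lower (3.18%), or 5.16% in all. The counts rested on the Parental libraries as well: without Parental replicate 1 there were 714 higher and 1550 lower, and without Parental replicate 2 there were 373 higher and 862 lower. A region is called agreeing below where it passed the test, both E libraries lay beyond both Parental libraries, and each E library differed from the Parental mean by at least 1 on the log2 scale. There were 2226 agreeing regions higher in E (3.38%) and 2484 lower in E (3.78%), together 7.16% of those tested. Of these, 944 and 1311 were also called with E replicate 2 as the only E library. Without Parental replicate 1 there were 663 agreeing higher and 1335 agreeing lower regions, and without Parental replicate 2 there were 357 and 779.

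Gains seen in a single E library were mostly those of replicate 1. Before any test, both E libraries lay at least 1 above both Parental libraries at 2871 regions (4.37%) and at least 1 below at 3058 (4.65%). A further 4573 regions lay at least 1 above both Parental libraries in E replicate 1 alone, and 1196 did so in E replicate 2 alone. The regions higher in E replicate 1 alone had a median of 14.2 CPM in M2, against 9.49 CPM over all regions, and of 1.11 CPM in Parental. Regions lower in a single library numbered 3742 for E replicate 1 and 2935 for E replicate 2. Most agreeing gains were also higher in M2: in 1915 of the 2226 (86.0%) the mean of M2 was above that of Parental. This held for 49.9% of all regions. At these 1915 regions the excess of E over Parental was a median of 33.2% of the M2 excess in E replicate 1 and of 18.2% in E replicate 2. Since agreeing regions were chosen for being high in both E libraries against the same Parental values, these shares are a description. The same tally was not made for M1. Among the agreeing losses, 2311 of 2484 (93.0%) had a lower mean in M2 than in Parental, which held for 50.1% of all regions. The Parental values entered the choice of these regions too.

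**Figure D1:**
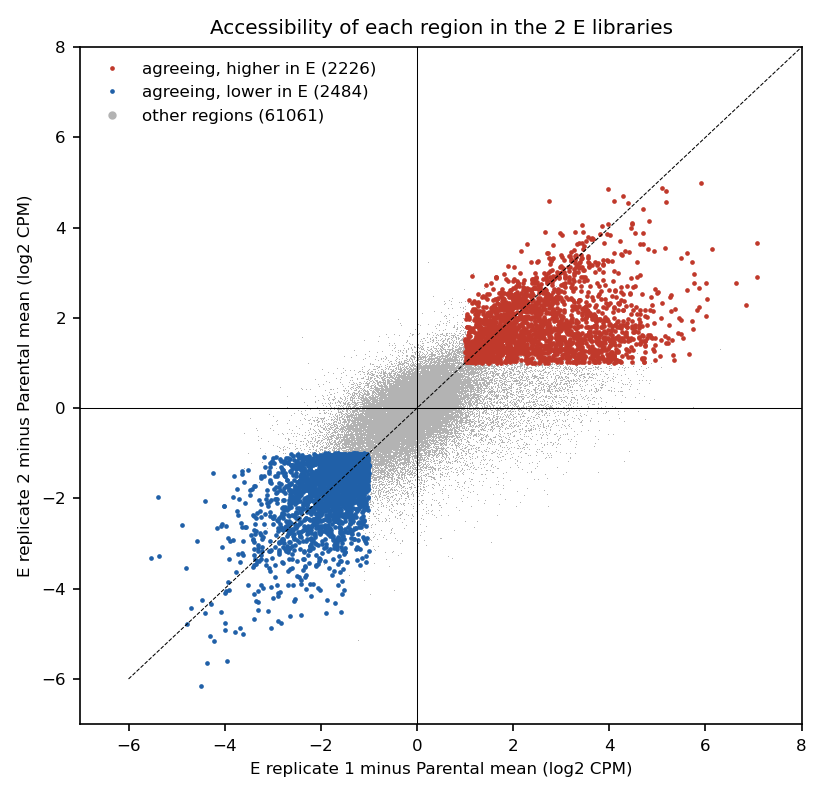
Difference of each region from the Parental mean (log2 CPM), with E replicate 1 on the x axis and E replicate 2 on the y axis. The dashed line marks equal differences. Red points are the 2226 agreeing regions higher in E, blue points are the 2484 lower in E and grey points are the other regions. A band of grey points reaches to the right near 0 on the y axis, where E replicate 1 was higher and E replicate 2 was not.

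The loci given as marks of clone E were GUCY1B1, ZFP42 and TBX3, and 2 of these 3 had agreeing regions. They were chosen with earlier results of these data known, so their values describe them and are no independent check. GUCY1B1 encodes the beta subunit of soluble guanylate cyclase, the receptor for nitric oxide that makes cyclic GMP. The region over its start (chromosome 4, 155758789 to 155759334) had 1.21 and 0.439 CPM in E, from 10 and 4 counts, against 14.6 and 12.4 CPM in Parental, from 161 and 146 counts. The log2 change was -4.04 ± 0.37 (SE, adjusted p = 0.00019, 95% interval -4.83 to -3.24). Its 250-base promoter, printed above, lies almost wholly within this region. No other library was as low: the means were 17.1 CPM in EM1, 12.4 in EM2, 14.6 in EM3, 25.9 in M1 and 6.91 in M2. The other region assigned to GUCY1B1, inside the gene, had 2.67 and 3.18 CPM in E and 5.99 and 3.14 CPM in Parental, and did not pass (log2 change -0.63, adjusted p = 0.37).

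ZFP42, also called REX1, is a zinc finger factor known from pluripotent cells. A region inside the gene (chromosome 4, 188002249 to 188002859) had 2.30 and 2.31 CPM in E, against 18.3 and 13.7 CPM in Parental, a log2 change of -2.79 ± 0.27 (SE, adjusted p = 0.00025). It was lower in E than in each of the 12 other libraries, with means of 4.02 CPM in M1 and 3.72 CPM in M2 and between 17.1 and 18.7 CPM in the EM clones. A weaker region inside the gene, from 187999516, had 1.58 and 1.10 CPM in E and 6.71 and 6.02 CPM in Parental (log2 change -2.25, adjusted p = 0.019). Its call was lost without any 1 of the 4 libraries, at adjusted p between 0.06 and 0.097. Downstream of the gene the differences were smaller. The region picked for ZFP42 by the marker rule, the strongest within 10 kb of an end, lay at 9813 bases. It had 34.5 and 47.4 CPM in E and 62.3 and 34.4 CPM in Parental. The groups overlapped there and it did not pass (adjusted p = 0.74). The region from 188002249 was named by its rank among the losses. At 18408 bases, a region had 42.1 and 42.5 CPM in E and 72.0 and 61.5 CPM in Parental, and fell by 0.66 on the log2 scale (adjusted p = 0.018), less than asked of an agreeing region.

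TBX3 is a T-box repressor with a role in mammary gland development. The promoter table used assigned no start to TBX3, so its regions are placed by the ends of the gene only. The region overlapping its end of higher coordinate (chromosome 12, from 114684075) had 47.6 and 14.5 CPM in E and 19.2 and 17.3 CPM in Parental. The Parental values lay between those of E. The log2 change was 0.76 ± 0.36 (SE, adjusted p = 0.19). It passed with E replicate 1 as the only E library (log2 change 1.45) but not with E replicate 2 (adjusted p = 0.32). M2, whose signal E replicate 1 shared, had a mean of 165 CPM, M1 had 74.0 and EM2 had 75.1, while EM1 had 1.59 and EM3 had 0.830. No agreeing region was assigned to TBX3.

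**Figure D2:**
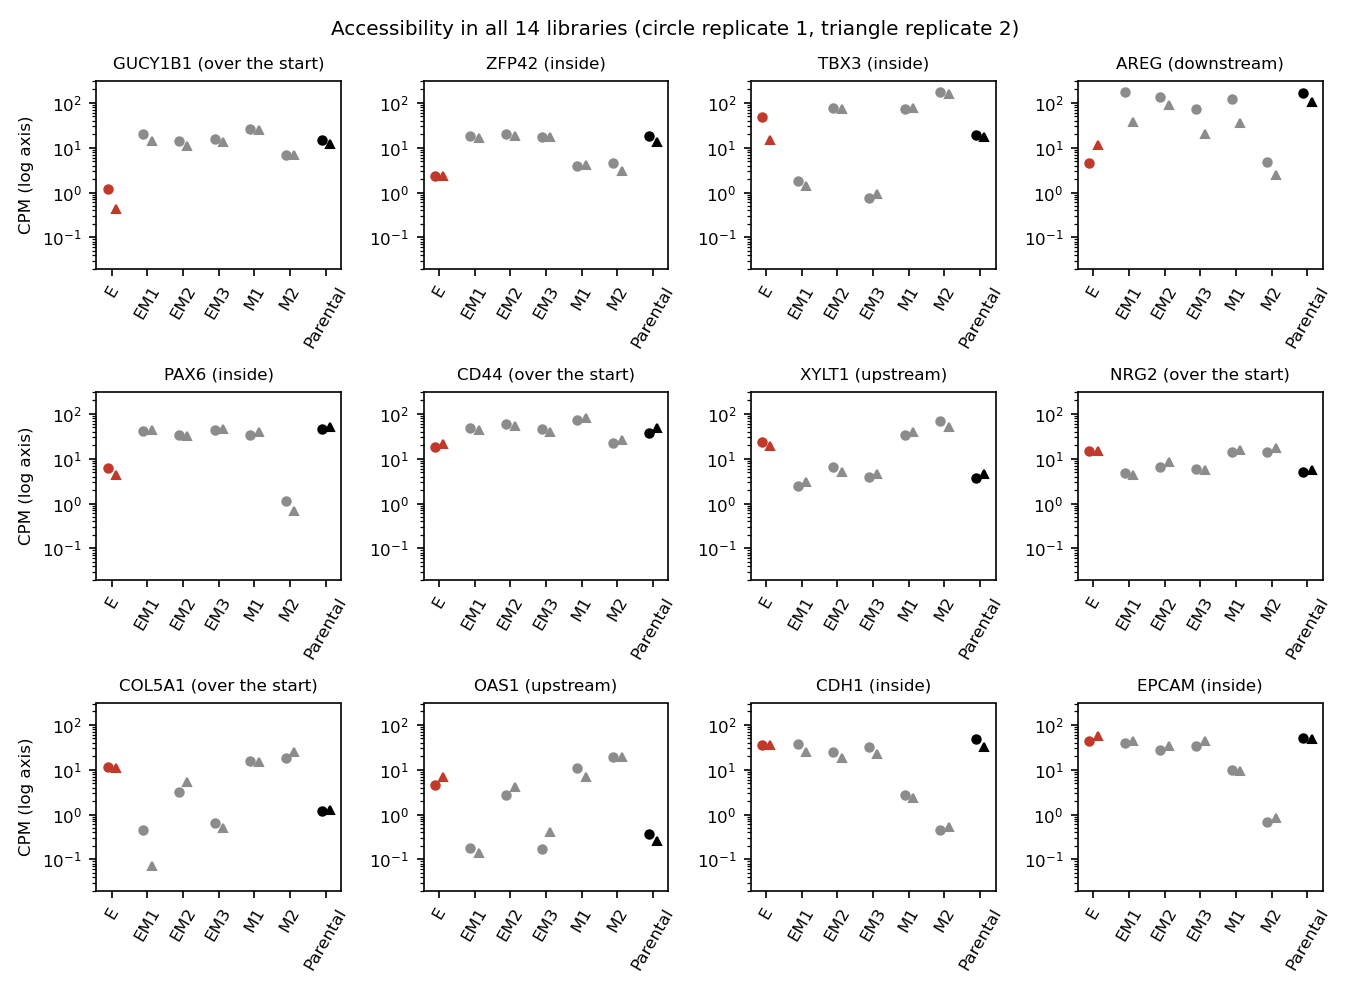
CPM on a log axis at 12 named regions in all 14 libraries, with E at the left in red, Parental at the right in black and the other clones in grey. Circles are replicate 1 and triangles are replicate 2. GUCY1B1 and ZFP42 are low in both E libraries, the E libraries part at TBX3, and CDH1 and EPCAM are alike in E and Parental.

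Other strong losses included regions by the genes of 2 ligands of the epidermal growth factor (EGF) receptor. The region 276 bases downstream of AREG, which encodes amphiregulin (chromosome 4, 74455281 to 74456710), had 4.61 and 11.3 CPM in E, against 170.2 and 104 CPM in Parental. Its log2 change was -4.09 ± 0.85 (SE, adjusted p = 0.01). The level varied between the libraries of other clones too, with 171 and 37.2 CPM in EM1 and 123 and 35.9 CPM in M1, and the test no longer passed when E replicate 1 (adjusted p = 0.075) or Parental replicate 1 (adjusted p = 0.055) was left out. The region over the AREG start did not pass, with 27.8 and 30.2 CPM in E and 34.5 and 34.4 CPM in Parental (adjusted p = 0.4). EREG encodes epiregulin. A region 6080 bases downstream of it (chromosome 4, 74394829 to 74395128) had 1.82 and 2.09 CPM in E and 9.98 and 9.25 CPM in Parental, a log2 change of -2.29 (adjusted p = 0.0052). It was below all 12 other libraries, while the region over the EREG start had 23.3 and 22.0 CPM in E and 23.2 and 27.4 CPM in Parental (adjusted p = 0.54).

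Among agreeing regions with more signal than the median that lay at most 10 kb from a gene end, the 12 lowest ranged in log2 change from -4.09 to -2.12, and 11 of the 12 calls held without each of the 4 libraries in turn. PLEKHA5 encodes a protein with a pleckstrin homology domain, and a region inside the gene (chromosome 12, from 19138506) had 5.10 and 5.93 CPM in E and 42.4 and 63.5 CPM in Parental. COBL, an actin nucleator, had 4.61 and 4.28 CPM in E and 28.7 and 32.7 CPM in Parental at a region inside the gene (chromosome 7, from 51019162). TNK2, a non-receptor tyrosine kinase, had 7.04 and 5.93 CPM in E and 30.1 and 31.1 CPM in Parental (chromosome 3, from 195870576). In each of these the E libraries were close together and far below Parental. The start of ADARB2, a brain member of the RNA-editing deaminase family (chromosome 10, 1737271 to 1738017), had 2.67 and 2.75 CPM in E and 16.4 and 14.7 CPM in Parental, a log2 change of -2.52 ± 0.25 (SE, adjusted p = 0.00025). DVL3, a dishevelled protein of the Wnt pathway, and RANBP10, a Ran-binding protein, fell by 2.55 and 2.12 on the log2 scale at regions inside the genes. MALRD1, on chromosome 10, fell by 2.49. ADARB2 and MALRD1 lie in 10 Mb windows that were low in both E libraries, as described below. With the window median removed, the log2 change was -1.50 at ADARB2 (adjusted p = 0.0044) and -1.55 at MALRD1 (adjusted p = 0.027). M2 was below Parental in 11 of the 12, EREG being the exception.

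The 12 highest regions by the same rule ranged from 1.44 to 2.35, and 5 of the 12 calls held without each of the 4 libraries. XYLT1 encodes the xylosyltransferase that starts glycosaminoglycan chains on proteoglycans. The region 291 bases upstream of it (chromosome 16, 17471251 to 17472014) had 23.0 and 18.9 CPM in E, against 3.72 and 4.50 CPM in Parental, a log2 change of 2.35 ± 0.25 (SE, adjusted p = 0.00044). NRG2 encodes neuregulin 2, a ligand of ERBB receptors, and the region over its start (chromosome 5, 140043136 to 140043471) had 14.9 and 14.6 CPM in E and 5.17 and 5.68 CPM in Parental. Its log2 change was 1.44 ± 0.23 (SE, adjusted p = 0.0031). CEP72, a centrosomal protein, had 24.3 and 22.8 CPM in E and 7.53 and 9.50 CPM in Parental downstream of the gene, above all 12 other libraries and with 5.79 CPM in M2. ITGA5, the alpha-5 subunit of the fibronectin receptor, had 8.13 and 12.3 CPM in E and 2.99 and 3.14 CPM in Parental at a region 9225 bases upstream. KCNG4, a modifier subunit of potassium channels, rose by 1.53 on the log2 scale at a region inside the gene. In these 5 regions both E libraries lay clearly above Parental.

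The calls at the remaining 7 were lost without at least 1 library. DUSP1, a phosphatase that switches off MAP kinases, had 42.6 and 32.7 CPM in E and 6.62 and 9.50 CPM in Parental at a region 912 bases downstream. Its log2 change was 2.22 ± 0.43 (SE, adjusted p = 0.0073), with adjusted p = 0.076 without Parental replicate 1 and 0.053 without Parental replicate 2. ANKRD1, a known target of YAP and TAZ, had 38.0 and 30.5 CPM in E and 8.16 and 9.84 CPM in Parental at a region 9079 bases upstream (log2 change 1.93, adjusted p = 0.012). It did not pass with E replicate 2 as the only E library (adjusted p = 0.056) or without Parental replicate 1 (0.098) or 2 (0.084). MT1HL1 (log2 change 1.95), NUP160 (1.84) and FAM167A (1.84) were lost without Parental replicate 2, at adjusted p of 0.14, 0.095 and 0.081. LOC124903164 (1.49) was lost without Parental replicate 1 (0.11), and TG (1.53) without any 1 of the 4. MT1HL1 is a metallothionein-like gene with close copies elsewhere, so reads there may be shared with them. M2 was above Parental in 11 of the 12, CEP72 being the exception.

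Long stretches of a few chromosomes were lower in both E libraries. Of 302 windows of 10 Mb with at least 20 regions, 8 had median log2 differences from Parental at or below -0.5 in both E libraries and 2 had medians at or above 0.5. On chromosome 10 the medians were -0.86 (E replicate 1) and -1.30 (E replicate 2) from 0 to 10 Mb and -0.93 and -1.19 from 10 to 20 Mb. M2 was near Parental there, with medians between -0.19 and 0.01 over both windows. On chromosome 11 from 30 to 40 Mb they were -1.02 and -0.80, and M2 was also low, at -1.06 and -1.16. On chromosome 9 they were -0.61 and -0.91 from 60 to 70 Mb, -0.90 and -0.73 from 70 to 80 Mb and -0.78 and -0.70 from 80 to 90 Mb. M2 was about as low or lower in these windows, at -0.72 and -0.95, -1.27 and -1.33, and -0.95 and -1.18. The other low windows were chromosome 4 from 140 to 150 Mb, where M2 was above Parental (0.30 and 0.38), and chromosome 5 from 20 to 30 Mb. On chromosome 5 the medians were -0.66 and -0.57 in E, -1.03 and -1.29 in M1, -0.48 and -1.33 in M2 and -0.99 and -1.28 in EM2. The high windows were chromosome 9 from 20 to 30 Mb (0.78 and 0.65) and chromosome 10 from 130 to 140 Mb (0.80 and 0.59). The low windows held 2.66% of all regions and 433 of the 2484 agreeing losses (17.4%). Windows and losses were picked from the same differences, so a raised share follows from the choice and is a description only. Whether these stretches differ in the number of DNA copies was not tested. Removing the median of its 10 Mb window from each region left 1995 agreeing regions higher and 1922 lower.

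**Figure D3:**
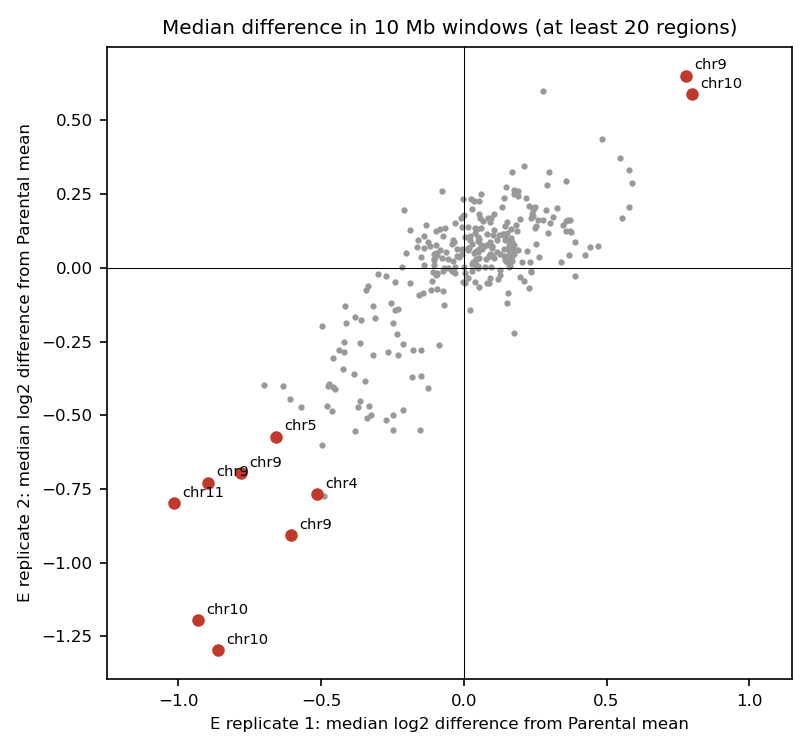
Median log2 difference from the Parental mean in each of 302 windows of 10 Mb, with E replicate 1 on the x axis and E replicate 2 on the y axis. Red points are the 10 windows with both medians at or beyond 0.5 in the same direction, named by chromosome. The windows of chromosomes 10, 11 and 9 lie at the lower left, and the grey windows lie nearer 0.

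The 8 genes with the most agreeing losses all lay in these low windows, which were picked from the same differences. WT1, a zinc finger factor of kidney and gonad, had 6 of its 7 regions lower in E. Its start (chromosome 11, 32434453 to 32436278) had 36.6 and 54.5 CPM in E and 111 and 122 CPM in Parental, a log2 change of -1.35 (adjusted p = 0.002). A region inside WT1 from 32420867 had 8.73 and 12.4 CPM in E and 53.7 and 58.6 CPM in Parental, and its change of -2.40 became -1.53 with the window median removed (adjusted p = 0.0068). PAX6, a master factor of eye development, had 4 of 4 regions lower, the strongest with 6.19 and 4.28 CPM in E and 46.4 and 52.0 CPM in Parental (log2 change -3.24, or -2.35 with the window median removed). RCN1, a calcium-binding protein of the endoplasmic reticulum, had 4 of 10. On chromosome 10, ASB13 had 6 of 11, FAM107B 5 of 8, PFKP, the platelet form of phosphofructokinase, 5 of 9, CALML3, a calmodulin-like protein, 5 of 7, and KLF6, a zinc finger factor, 5 of 17. FAM107B had 0.849 and 0.220 CPM in E and 4.72 and 5.94 CPM in Parental at a region inside the gene. With the window median removed, the regions named for CALML3 (log2 change -0.98, adjusted p = 0.092) and KLF6 (-0.94, 0.067) no longer passed, and those of the other 6 genes did.

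At the scale of 1 Mb, windows were ranked by the E library that differed less from Parental, and the 4 highest were also high in M1 and M2. Of 2253 windows with at least 10 regions, chromosome 16 from 17 to 18 Mb, at XYLT1, ranked first by this measure, with medians of 2.16 in E replicate 1 and 2.32 in E replicate 2, and 11 of its 15 regions were agreeing. M1 stood there at 2.91 and 3.02, M2 at 2.43 and 1.70, and EM1 at -0.75 and -1.30. Chromosome 14 from 72 to 73 Mb, at DPF3, a chromatin remodelling subunit, and RGS6, a regulator of G protein signalling, stood at 2.04 in E replicate 1 and a little higher in E replicate 2, with 12 of 17 agreeing. The E libraries were close together in both of these windows and less so in the next ones. Chromosome 5 from 174 to 175 Mb, at NSG2 and MSX2, had 1.85 and 1.38, and chromosome 12 from 115 to 116 Mb, by MED13L, had 2.12 and 1.26. The window next to the last, which holds TBX3, was higher in E replicate 1 than any of these, with 3.36 in E replicate 1 and 0.85 in E replicate 2, beside 5.20 and 4.84 in M2. The lowest windows lay on chromosome 11 from 40 to 41 Mb, at LRRC4C (-1.55 and -1.80), and 37 to 38 Mb (-1.54 and -1.45), and on chromosome 10 from 9 to 10 Mb (-1.53 and -1.67) and 8 to 9 Mb. The last, at GATA3, a factor of luminal mammary cells, stood at -1.30 and -1.52, and M1 (-1.79 and -2.39) and M2 (-2.30 and -1.96) were lower still.

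**Figure D4:**
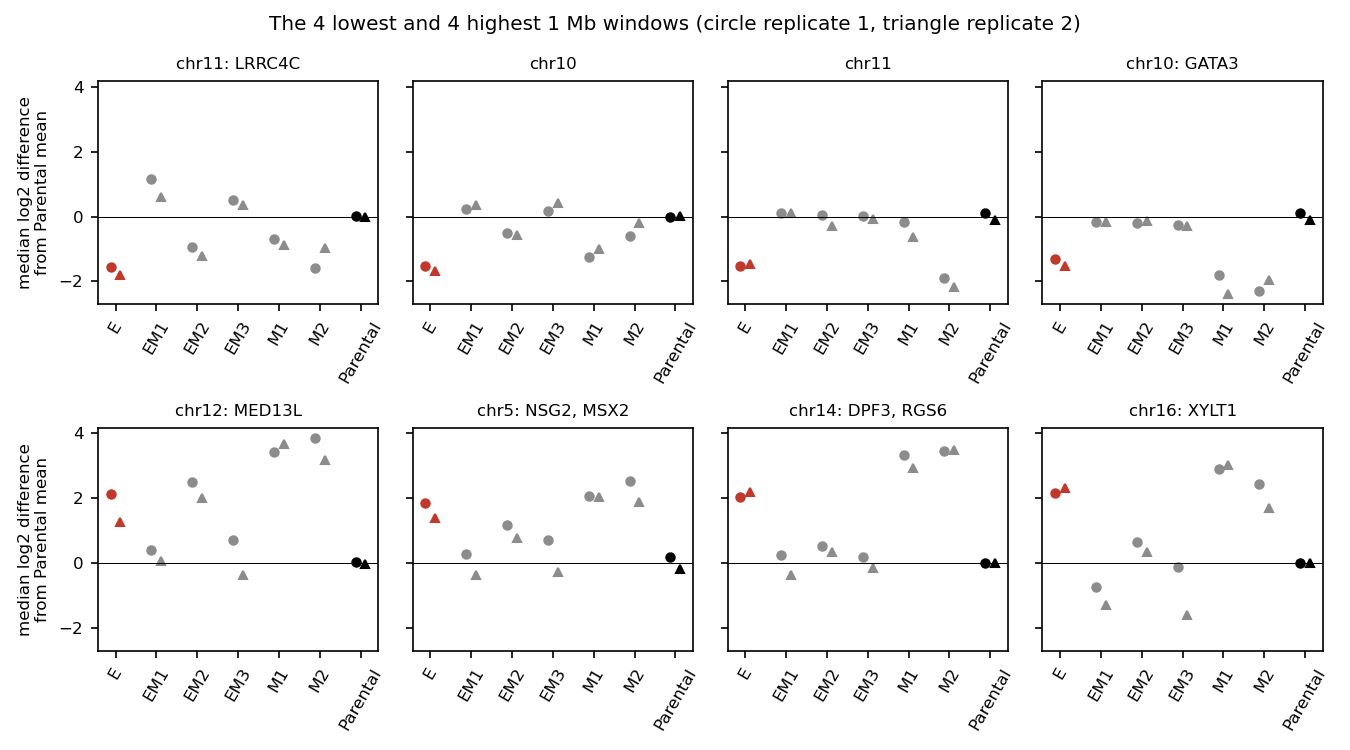
Median log2 difference from the Parental mean in the 4 lowest and the 4 highest windows of 1 Mb, in all 14 libraries, with E at the left in red and Parental at the right in black. Circles are replicate 1 and triangles replicate 2. In the XYLT1 and DPF3 windows both E libraries stand near 2, with M1 and M2 and above the EM clones.

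The genes with the most agreeing gains were not in the high windows of 10 Mb. LMCD1, a LIM-domain regulator of transcription, had 5 of its 6 regions higher in E. The region over its start (chromosome 3, 8501475 to 8501956) had 38.9 and 22.4 CPM in E and 8.43 and 13.3 CPM in Parental, a log2 change of 1.49 (adjusted p = 0.0086). A region 18126 bases upstream had 18.8 and 11.5 CPM in E and 1.09 and 1.36 CPM in Parental (log2 change 3.62 ± 0.52 SE, adjusted p = 0.0016), with 45.8 CPM in M2. Further upstream, E replicate 2 was far below E replicate 1. The LMCD1 region from 8461142 had 6.67 and 0.549 CPM in E and 0.0907 and 0.0848 CPM in Parental, with 26.7 CPM in M2. That from 8458755 had 4.61 and 0.769 CPM in E and 0.181 and 0.170 CPM in Parental, with 34.9 CPM in M2. TSPAN18, a tetraspanin, had 5 of 9. Among these, M2 was above both E libraries at the regions from 44760920 (15.1 CPM in M2) and 44709949 (7.27 CPM in M2), and below both at the others. The TSPAN18 region from 44755509 on chromosome 11 averaged 12.9 ± 2.7 CPM in E and 1.49 ± 0.18 CPM in Parental (SD, n = 2 each; log2 change 3.11, adjusted p = 0.0019), with 3.34 CPM in M2 and 13.2 CPM in M1. PPP1R3C, a glycogen-targeting subunit of protein phosphatase 1, had 5 of 10. PPM1L, a protein phosphatase, had 4 of 7, and a region inside it had 16.7 and 6.81 CPM in E and 0.453 and 0.424 CPM in Parental, with 30.3 CPM in M2. PDPN, the membrane glycoprotein podoplanin, had 4 of 6, but its E libraries lay far apart, at 20.6 and 3.51 CPM, against 0.0907 and 0.424 CPM in Parental, and M2 had 73.6. FBLN1, the matrix protein fibulin 1, had 4 of 14, SYT13, a synaptotagmin, 4 of 6, and C14orf132 4 of 10. The call named for PPP1R3C was lost without Parental replicate 2 (adjusted p = 0.055), as was that for SYT13 (0.086). Those for PDPN (0.056 and 0.055) and C14orf132 (0.16 and 0.14) were lost without either Parental library, and that for C14orf132 also with E replicate 2 as the only E library (0.071). Over the 8 genes, M2 was above Parental in 7 of the named regions, C14orf132 being the exception.

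The strongest region within 1 kb of an end of each main epithelial gene did not pass. There were 7 such regions: those of CDH1 (E-cadherin), EPCAM (an epithelial adhesion molecule), GRHL2, ESRP1 (an epithelial splicing factor), OVOL2, ELF3 and CLDN4 (claudin 4) had log2 changes between -0.30 and 0.01, and their 95% intervals lay between -0.75 and 0.40. All 7 were lower in M2 than in Parental, with 0.496 CPM in M2 at CDH1. Another ESRP1 region, inside the gene, had 1.33 and 1.65 CPM in E and 4.90 and 5.60 CPM in Parental (log2 change -1.81, adjusted p = 0.034), and did not pass with E replicate 2 as the only E library (0.13). CDH1 (chromosome 16, from 68738070) had 35.9 and 35.7 CPM in E and 48.2 and 31.6 CPM in Parental, and EPCAM had 43.2 and 56.3 CPM in E and 50.6 and 48.3 CPM in Parental. The basal keratin gene KRT5 had 15.2 and 19.9 CPM in E and 21.9 and 21.6 CPM in Parental (adjusted p = 0.51). Over the wider list of epithelial genes, 1 of 147 regions was higher and 13 were lower, against 4.43% higher and 5.48% lower among all regions with a gene end within 50 kb, and 5 of the 13 were agreeing. EHF, an epithelial ETS factor, held 2 of these. The region 49867 bases upstream of it (chromosome 11, 34570489 to 34571226) had 39.9 and 42.4 CPM in E and 96.4 and 101 CPM in Parental (log2 change -1.26, adjusted p = 0.0011). EHF lies in the low window of chromosome 11, and with its median removed the change was -0.38 (adjusted p = 0.16). The other region, over the EHF start (from 34624133), had 2.67 and 4.17 CPM in E and 16.6 and 14.1 CPM in Parental. Its log2 change was -2.16 (adjusted p = 0.0067), and -1.29 with the window median removed (adjusted p = 0.069). Removing window medians left 5 of the 147 regions lower.

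The strongest region at an end of each main mesenchymal gene did not pass. It was taken within 1 kb of an end, or within 10 kb where there was none, as for CDH2 and ZEB2. The CDH2 region lay 9896 bases from an end and held only 13 and 5 counts in E and 10 and 12 in Parental. The regions named for VIM (vimentin), FN1 (fibronectin), CDH2 (N-cadherin), ZEB1, ZEB2, SNAI2 and TWIST1 had log2 changes between -0.44 and 0.32, and their 95% intervals lay between -1.26 and 1.51. All 7 were higher in M2 than in Parental. SNAI1, which was not among the 7, had 12.7 and 19.9 CPM in E and 12.5 and 15.2 CPM in Parental (adjusted p = 0.67), and its mean was 13.7 CPM in M2 and 13.9 CPM in Parental. Other regions of these genes did pass. A region 11531 bases upstream of FN1 fell by 2.05 on the log2 scale (adjusted p = 0.0081), but not with E replicate 2 as the only E library (0.056). At the VIM start (chromosome 10, from 17228163) the E libraries were apart, at 21.7 and 9.55 CPM, against 17.8 and 24.5 CPM in Parental (adjusted p = 0.37). With E replicate 2 as the only E library it was lower (log2 change -1.15, adjusted p = 0.027). VIM lies in the low window of chromosome 10, and with its median removed the log2 change was 0.45 (adjusted p = 0.3). Around VIM, a region inside the gene had 17.1 and 15.6 CPM in E and 44.5 and 44.6 CPM in Parental (log2 change -1.45, or -0.51 with the window median removed), and a region 735 bases downstream had 6.91 and 2.42 CPM in E and 0.725 and 0.679 CPM in Parental (log2 change 2.70), with 45.1 CPM in M2. CD44 encodes a cell surface receptor for hyaluronan. Its start had 18.1 and 21.2 CPM in E and 37.1 and 48.0 CPM in Parental (log2 change -1.11, adjusted p = 0.0023), below all 12 other libraries. With the window median of chromosome 11 removed, the change at the CD44 start was -0.23 (adjusted p = 0.5). The region 26847 bases upstream of CD44 (chromosome 11, 35110972 to 35112324) fell further, with 17.3 and 21.6 CPM in E and 71.1 and 103 CPM in Parental, and still passed after that removal (log2 change -1.27, adjusted p = 0.0026).

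Among 21 gene lists, the share of regions called was highest for interferon and antigen presentation, at 25.8% of 66 regions, practically the same as the 25% of 40 regions for endothelial markers, against 9.91% of all 43655 regions with a gene end within 50 kb. Of the 66, 13 were higher, 4 were lower and 49 did not pass, and the median log2 change was 0.45, against 0.04. With E replicate 2 as the only E library, 10 were higher and 4 lower, and with E replicate 1 there were 11 and 5. With window medians removed, 7 were higher and 4 lower. The list held 9 agreeing gains and 4 agreeing losses, and those described here were chosen after their values were seen, apart from OAS1. The gains lay by antiviral genes. IFIT1, IFIT2 and IFIT3 encode interferon-induced proteins that bind viral RNA or its partners. The region over the IFIT1 start (chromosome 10, 89392310 to 89392683) had 8.13 and 5.60 CPM in E and 2.18 and 1.87 CPM in Parental (log2 change 1.76 ± 0.33 SE, adjusted p = 0.006). The IFIT3 start had 13.7 and 10.1 CPM in E and 4.99 and 4.41 CPM in Parental (log2 change 1.34, adjusted p = 0.02), and a region 6035 bases from IFIT2 had 4.97 and 5.93 CPM in E and 1.09 and 1.02 CPM in Parental. The promoters of IFIT1 and IFIT3 printed above each hold more than 1 match to the interferon response element.

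The region over the start of IFI44, another interferon-induced gene, had 7.40 and 6.81 CPM in E and 3.36 and 2.80 CPM in Parental (log2 change 1.20, adjusted p = 0.028). OAS1 and OAS2 encode enzymes that activate RNase L on double-stranded RNA. A region 1979 bases upstream of OAS1 (chromosome 12, 112904571 to 112904983) had 4.49 and 6.92 CPM in E and 0.363 and 0.255 CPM in Parental, a log2 change of 4.17 ± 0.49 (SE, adjusted p = 0.00063). M2 had 19.2 CPM there, M1 had 8.92 and EM2 had 3.41. A region overlapping an end of OAS2 had 9.70 and 3.62 CPM in E and 1.09 and 1.36 CPM in Parental, with 20.8 CPM in M2. With E replicate 2 as the only E library, OAS2 (adjusted p = 0.16), IFIT3 (0.12) and IFI44 (0.1) did not pass, while IFIT1 (0.038) and IFIT2 (0.02) did. Gains also included 2 regions downstream of IRF1, a factor of the interferon response. With window medians removed, IFIT3 (adjusted p = 0.088) and 1 of the IRF1 regions (0.11) no longer passed. IFIT1 and IFIT2 still passed. Among the losses, a region inside STAT2, a factor that carries the interferon signal, had 0.485 and 0.110 CPM in E and 5.35 and 3.82 CPM in Parental (log2 change -3.93, adjusted p = 0.0026), with 0.0382 CPM in M2.

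**Figure D5:**
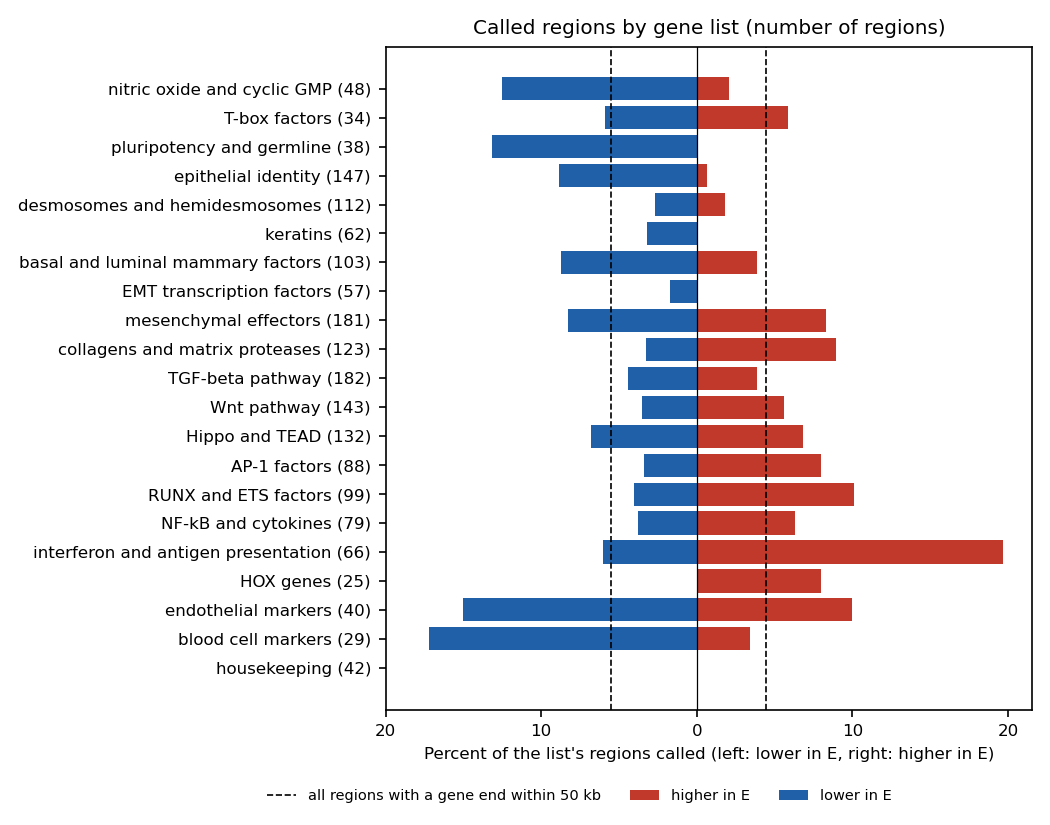
Percent of the regions of each of 21 gene lists that were called, higher in E to the right and lower in E to the left, with the number of regions in parentheses. Dashed lines mark the shares over all regions with a gene end within 50 kb, 4.43% higher and 5.48% lower. The interferon list reaches farthest to the right, and the 42 housekeeping regions have no call.

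Most other lists held changes in both directions. Their counts stand beside 4.43% higher and 5.48% lower over all regions with a gene end within 50 kb. Collagens and matrix proteases had 11 of 123 regions higher and 4 lower, with a median log2 change of 0.15. COL5A1 encodes a chain of type V collagen, and the region over its start (chromosome 9, 134641520 to 134641852) had 11.5 and 10.7 CPM in E and 1.18 and 1.27 CPM in Parental. Its log2 change was 3.16 ± 0.40 (SE, adjusted p = 0.00096). It was open in M1 (15.3 CPM) and M2 (21.3), partly open in EM2 (4.23) and low in EM1 (0.257) and EM3 (0.570). A region inside MMP2, a gelatinase, was lower, with 7.52 and 9.88 CPM in E and 26.4 and 28.5 CPM in Parental (log2 change -1.65, adjusted p = 0.0014), below all 12 other libraries. Mesenchymal effectors had 15 of 181 higher and 15 lower. CCN2, a secreted matricellular protein, had 3.64 and 2.31 CPM in E and 0.0907 and 0.424 CPM in Parental at a region 28717 bases upstream.

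In signalling pathways, the Hippo and TEAD list had 9 of 132 regions higher and 9 lower. WWTR1 encodes TAZ, a partner of the TEAD factors, and a region inside it (chromosome 3, from 149678310) had 5.58 and 5.27 CPM in E and 20.2 and 31.4 CPM in Parental (log2 change -2.25, adjusted p = 0.00061). VGLL1, another TEAD partner, had 1.94 and 2.75 CPM in E and 9.34 and 9.50 CPM in Parental downstream of the gene. The TGF-beta list had 7 of 182 higher and 8 lower. A region inside TGFBR3, the coreceptor betaglycan, had 10.7 and 4.61 CPM in E and 0.363 and 0.509 CPM in Parental (log2 change 4.09 ± 0.51 SE, adjusted p = 0.00091), with 40.2 CPM in M2. The Wnt list had 8 of 143 higher and 5 lower. A region 10398 bases upstream of WNT3A, a Wnt ligand, had 29.7 and 22.6 CPM in E and 5.62 and 2.46 CPM in Parental (log2 change 2.70, adjusted p = 0.0077). It was above all 12 other libraries, with 0.451 CPM in M1 and 0.458 in M2, and its call was lost without Parental replicate 2 (0.1).

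The RUNX and ETS list had 10 of 99 regions higher and 4 lower, and the AP-1 list 7 of 88 and 3. ELK3, an ETS factor, had 31.3 and 19.2 CPM in E and 5.99 and 7.30 CPM in Parental at a region inside the gene (log2 change 1.92, adjusted p = 0.0019). A region inside BACH2, a repressor at AP-1-like sites, had 0.970 and 0.439 CPM in E and 4.44 and 6.19 CPM in Parental (log2 change -2.92, adjusted p = 0.0027), below all 12 other libraries. The NF-kB and cytokine list had 5 of 79 higher and 3 lower. A region 8506 bases upstream of IL6, the inflammatory cytokine, had 13.6 and 11.1 CPM in E and 2.00 and 3.65 CPM in Parental (log2 change 2.12, adjusted p = 0.0057), and its call was lost without Parental replicate 1 (0.062). CCL5, a chemokine, had 7.04 and 9.22 CPM in E and 2.09 and 1.78 CPM in Parental at a region 11655 bases from the gene (adjusted p = 0.003).

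In the pathway of GUCY1B1, 1 of 48 regions of nitric oxide and cyclic GMP genes was higher and 6 were lower, of which 4 were agreeing. The losses include GUCY1B1 itself, which was given as a mark of clone E with earlier results of these data known. Over all regions with a gene end within 50 kb, 4.43% were higher and 5.48% lower. The median log2 change of the list was -0.04, and with window medians removed 2 of its regions were higher and 4 lower. Besides GUCY1B1, a region inside NPR3, the clearance receptor for natriuretic peptides, had 14.7 and 15.4 CPM in E and 39.6 and 41.4 CPM in Parental (log2 change -1.43, adjusted p = 0.0067), and its call was lost without Parental replicate 2 (0.058). The gain was inside GUCY1A2, an alpha subunit of the same cyclase, with 4.61 and 1.87 CPM in E and 0.725 and 0.594 CPM in Parental (adjusted p = 0.016), and it did not pass with E replicate 2 as the only E library (0.14). Among T-box factors, 2 of 34 regions were higher and 2 were lower. A region by TBX2 had 1.82 and 2.31 CPM in E and 8.89 and 9.50 CPM in Parental (log2 change -2.15, adjusted p = 0.0014). Among pluripotency and germline genes, 5 of 38 were lower and 0 higher, and 2 of the 3 agreeing ones were those of ZFP42. Among basal and luminal mammary factors, 4 of 103 were higher and 9 lower. A region 48386 bases downstream of TFAP2A, an AP-2 factor, had 7.76 and 6.37 CPM in E and 33.6 and 24.9 CPM in Parental (log2 change -2.05, adjusted p = 0.001). A region inside ACTA2, smooth muscle actin (chromosome 10, 88990037 to 88991177), had 62.0 and 64.1 CPM in E and 28.8 and 29.8 CPM in Parental (log2 change 1.11 ± 0.17 SE, adjusted p = 0.002). That region also spans the promoter of FAS, which encodes a death receptor.

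Keratins had 0 of 62 regions higher and 2 lower, and desmosomes and hemidesmosomes had 2 of 112 and 3. The factors of epithelial-mesenchymal transition had 0 of 57 higher and 1 lower, at TCF7L2, whose call was lost without any 1 of the 4 libraries. HOX genes had 2 of 25 higher and 0 lower. None of the 42 regions of housekeeping genes passed in either direction, and 2 were higher with E replicate 1 as the only E library.

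Agreeing regions lay away from genes more often than other regions did. Of the agreeing gains 3.95% and of the agreeing losses 4.11% lay within 1 kb of the end of a protein-coding gene, against 18.8% of all regions. No gene end lay within 50 kb for 49.4% of gains and 47.7% of losses, against 33.6% of all regions. The median width was 402 bp for gains and 382 bp for losses, against 407 bp. A promoter in the RefSeq table overlapped an agreeing gain at 83 genes and an agreeing loss at 75, of 11057 promoters that overlapped any region. The median GC share of these promoters, over 250 bases before and 50 after the start, was 51.3% for gains and 58.7% for losses, against 65.3%. These shares describe the regions and were not tested.

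Motifs were searched on both strands in the same promoter windows. The interferon response element, spelled out above and added to the search after the interferon values were seen, occurred in 11 of the 83 promoters at gains (13.3%) and in 2 of the 75 at losses (2.67%), against 2.62% of the 11057. The AP-1 motif TGANTCA occurred in 21.7% at gains and 18.7% at losses, against 6.34%. The TEAD motif GGAATG occurred in 24.1% and 14.7%, against 10.8%. The ETS motif CCGGAAG was rarer than over all, with 2.41% at gains and 9.33% at losses, against 20.6%. The E-box CAGGTG, bound by ZEB and SNAI factors, occurred in 13.3% and 21.3%, against 17.8%. Other searched motifs were raised at gains and losses too: SOX (8.43% and 6.67%, against 1.63%) and C/EBP (15.7% and 13.3%, against 7.06%). So were forkhead (7.23% and 5.33%, against 2.40%) and homeobox motifs (4.82% and 6.67%, against 1.92%). RUNX and GATA motifs were somewhat more frequent at both, T-box and CREB motifs were rarer at both, and the grainyhead motif went both ways. The directions of these motifs rest on between 1 and 6 promoters in each set, too few to read as trends. The promoters differ in GC share, which moves with the share holding a motif, and its part in these shares was not tested. A match is a run of letters, not a shown site.

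E was also compared with the mean of the EM clones, a comparison that uses the same E libraries. There 8483 of 65771 regions were higher in E (12.9%) and 7833 were lower (11.9%), or 24.8% in all. The log2 change at the GUCY1B1 start was -4.15 against the EM clones and -4.04 against Parental, and that inside ZFP42 was -2.94 and -2.79. At the COL5A1 start it was 3.70 and 3.16. ITGA5 stood at -0.26 against the EM clones (adjusted p = 0.43), whose means ran from 8.71 to 17.4 CPM, and at 1.74 against Parental. A region by KRT14, a basal keratin, had 18.8 and 17.0 CPM in E, above all 12 other libraries, and passed against the EM clones (log2 change 1.12, adjusted p = 0.0032) but not against Parental (0.22, adjusted p = 0.67). Both E libraries lay above all 12 other libraries at 1956 regions (2.97%) and below them at 2386 (3.63%), without a test. Among agreeing regions this held for 301 gains (13.5%) and 487 losses (19.6%). Agreeing regions were chosen to lie beyond both Parental libraries, so higher shares there follow in part from the choice.

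Markers of other cell types that a culture could hold moved in both directions. Over the endothelial list 4 of 40 regions were higher and 6 lower (25%), and over the blood cell list 1 of 29 was higher and 5 were lower (20.7%), against 9.91% called of all regions with a gene end within 50 kb. Their part in the results was not tested. CDH5, an endothelial cadherin, had 32.8 and 38.9 CPM in E and 36.5 and 36.7 CPM in Parental, and SPI1, a myeloid factor, averaged 24.6 ± 3.1 CPM in E and 25.8 ± 1.1 CPM in Parental (SD, n = 2 each). Inside PECAM1, an endothelial adhesion molecule, a region had 5.10 and 10.8 CPM in E and 2.63 and 1.53 CPM in Parental (log2 change 1.94, adjusted p = 0.0093), with 14.9 CPM in M2 and 26.7 in M1. It also passed with E replicate 2 as the only E library (0.0052), and was lost without Parental replicate 2 (0.11). A further PECAM1 region (log2 change 1.44, adjusted p = 0.019) and one 43281 bases from CLDN5 (1.55, 0.035) were agreeing gains too, but did not pass with E replicate 2 as the only E library (0.075 and 0.063). The strongest PECAM1 region within 10 kb of a gene end did not pass (log2 change 0.13, adjusted p = 0.89). Of the 6 endothelial losses 1 was agreeing, at a region 6975 bases downstream of TIE1, another gene of the list. Its log2 change was -1.51 (adjusted p = 0.035), and -1.38 with E replicate 2 as the only E library. PTPRC, which encodes CD45, had 4.61 and 4.39 CPM in E and 9.79 and 12.2 CPM in Parental downstream of the gene (log2 change -1.29, adjusted p = 0.027), and CD3E had 22.4 and 18.3 CPM in E and 52.2 and 43.0 CPM in Parental (adjusted p = 0.022). Both calls were lost without any 1 of the 4 libraries. TEK, an endothelial receptor, had 2.79 and 0.659 CPM in E and 0 and 0.170 CPM in Parental at a region inside the gene, in the high window of chromosome 9, with 13.8 CPM in M2 (log2 change 4.12, adjusted p = 0.018). It did not pass with E replicate 2 as the only E library (0.14) or without either Parental library (0.11 and 0.073). KDR had no region within 10 kb.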

How the data were processed

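The 14 libraries were ATAC-seq libraries. The deposited table, made by the authors, holds raw counts of each library in consensus regions; the submitters' processing notes name the build hg38 and the tools featureCounts, MACS2 2.1.1, Bowtie2 2.2.6, deepTools, Picard, cutadapt 1.9.1 and bcl2fastq 2.20.0.422, but give no roles. The merging of peaks into regions was not stated in the labels. Columns were matched to libraries by name, and the peak lists were not used.

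After TMM scaling, the quasi-likelihood F test of edgeR 4.0.16 in R 4.3.3 compared group means (7 groups, every library in the fit), with Benjamini-Hochberg adjustment. Its filterByExpr filter (minimum count 10) removed 3 regions and left 65771. The common biological coefficient of variation was 0.208, and log2 CPM used a prior count of 2. A fit without 1 library of a group assumes that the remaining library varies like the other groups. Each region took the closest protein-coding gene by distance to either end, up to 50 kb, in a RefSeq table (GRCh38.p14), and starts were taken from its promoter table. Windows needed at least 20 regions (10 Mb) or 10 regions (1 Mb).

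Named were the 12 highest and 12 lowest agreeing regions at most 10 kb from a gene end with more signal than the median, each gene once, ranked by the E library that differs less, of 201 such regions. Added were the 8 genes with the most agreeing regions in each direction, up to 2 agreeing regions with the smallest p for each of 21 lists (502 genes), the strongest gene-end region of each marker, and the 4 highest and 4 lowest windows of 1 Mb. The gene-end region of a marker lay within 1 kb of an end, or within 10 kb where there was none. KRT18 had no region within 10 kb. Other regions are named from the same genes or lists. The members, lists and rules were chosen with earlier results of these data known.

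The test was tested on simulated data for E versus Parental with 65196 regions. Of regions changed 1.5-fold, 2-fold and 4-fold, the test found 2.99%, 11.9% and 77.3%, and of its 63 calls 2 were false. Alternatives were a replicate block, only the 4 libraries, the Wald test of DESeq2 1.42.0, other scalings, no filter, a log2 limit of 1, window medians removed, regions with M2 above Parental left out, and each library left out. Some of the named regions are not reported here.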

Additional observations from a re-analysis of the deposited data

How the results depend on the processing

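Other scalings, no filter and the DESeq2 Wald test left the counts of called and agreeing regions within 1.5 times of their values, and no named change turned round. With only the 4 libraries, 1762 regions were called higher and 2685 lower in E, and 1469 were agreeing and higher. Leaving out regions with M2 above Parental left 452 called higher and 311 agreeing higher. Leaving out 1 library gave 373 to 5789 regions called higher, 862 to 3480 called lower, 357 to 663 agreeing higher and 779 to 1335 agreeing lower, where an agreeing region needs both E libraries. Requiring a call with E replicate 2 as the only E library, added after seeing the data, left 944 agreeing higher and 1311 lower. The 5 kb limit put 9.75% of gains and 12% of losses at a gene end. A log2 limit of 1 left 5147 regions higher against the EM clones. Removing window medians, also added later for the interferon list, left 7 of its regions higher. The cause of these shifts was not tested, beyond the fewer regions or libraries that some settings use.

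Replicate differences correlated at 0.221 between E and Parental and, over 21 pairs of groups, at 0.0232 to 0.59. All were above 0, but the lowest was too weak to take the numbers as a pairing, which the labels do not state, so a shared effect of the number may be present. With the replicate block, 5885 regions were called higher and 7222 lower in E, E replicate 1 alone had 5804 lower, and E replicate 2 alone had 3129 higher and 4650 lower. Of 77 named calls, 77 held with the block, 65 with window medians removed, and 47 without each of the 4 libraries in turn. In the simulated data, with 67 regions changed 2-fold, most of those changes were missed. Far more regions were called in the real data and depth was not varied, so that share may not carry over.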
